A study of Mus musculus with 9 samples.

Results

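The clustered histone genes encode the replication-dependent core histones H2A, H2B, H3 and H4 and the linker histone H1. They were taken as the protein-coding genes whose symbol begins with Hist1h, Hist2h, Hist3h or Hist4h, and 67 of the 55401 genes in the count table met this rule. The H1 family had 6 members, H2A and H2B had 18 each, H3 had 12 and H4 had 13. On the mouse genome build mm10, 54 members lay on chromosome 13, 10 on chromosome 3, 2 on chromosome 11 and 1 on chromosome 6. The measurement was acRIP-seq of testes from wild-type (WT) mice, which the methods describe as ICR animals without giving their age. Poly(A) RNA was mixed with an ac4C-containing β-globin probe made in vitro and was then precipitated with an antibody against N4-acetylcytidine (ac4C, the acRIP group) or with a rabbit IgG control (the IgG group), and RNA without precipitation served as input. Each group had 3 libraries, and the comparison asks which transcripts the ac4C antibody recovered beyond the control antibody and beyond their level in the RNA. Nothing in the labels or methods says whether the 3 libraries of a group came from separate animals, so the p-values measure the spread between these libraries, which may be technical.

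Most mRNAs end in a poly(A) tail. Replication-dependent histone mRNAs are the known exception among protein-coding transcripts, and they end just after a short conserved stem-loop that is bound by the stem-loop binding protein and cut with the help of the U7 snRNP. Some of these genes also give longer, polyadenylated transcripts in differentiated cells, and male germ cells express their own variants, such as the linker histone H1t (Hist1h1t), TH2A (Hist1h2aa) and TH2B (Hist1h2ba). RNA was selected here with oligo(dT) beads and primed with oligo(dT), so a transcript without a poly(A) tail is poorly recovered in every library, input included. A low value therefore cannot be told apart from a well-expressed gene whose mRNA carries no tail, and in whole testes fewer cells of a type cannot be told apart from less RNA per cell.

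The stem-loop was searched in the reference genome within 150 bases after the stop codon. It was found in 65 of the 67 members (97.01%), against 19 of 21884 other protein-coding genes (0.087%). Hist1h2an and Hist2h2be were the members without it. The loop began between 21 and 58 bases after the stop codon, with a median of 30. There were 8 distinct forms of the 16 bases, and the most frequent one occurred in 41 members. The sequences of the testis variants, of the most abundant H2B and H4 members and of the H4 gene with the largest acRIP counts relative to input are given as the mRNA reads, with the 16 bases of the stem-loop in capitals.
Hist1h1t (chr13:23696520-23696545, plus strand): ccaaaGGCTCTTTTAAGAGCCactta
Hist1h2aa (chr13:23934886-23934911, plus strand): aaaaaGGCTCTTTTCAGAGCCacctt
Hist1h2ba (chr13:23933725-23933750, minus strand): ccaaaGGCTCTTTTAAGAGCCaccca
Hist1h2bp (chr13:21787918-21787943, plus strand): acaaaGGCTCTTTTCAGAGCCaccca
Hist1h4a (chr13:23760795-23760820, minus strand): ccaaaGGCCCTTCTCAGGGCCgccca
Hist2h4 (chr3:96262934-96262959, minus strand): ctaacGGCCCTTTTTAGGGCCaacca
The H4 members carried other forms of the 16 bases than the H1, H2A and H2B members shown, and Hist1h4a was the only member with its form. The annotated exons of Hist1h2aa and Hist1h2ba end before the loop, whereas those of Hist1h1t pass it by 185 bases, those of Hist1h2bp by 228, those of Hist1h4a by 108 and those of Hist2h4 by 1257.

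A poly(A) signal (AATAAA or ATTAAA, on the strand of the gene) within 40 bases before an annotated transcript end was found in 17 members (25.37%), against 79.19% of the other protein-coding genes. The search depends on where the annotation ends, and signals further downstream were not searched. A gene counted if any of its annotated ends had a signal, so a gene with more ends had more chances, and the shares were not adjusted for this. The annotated exons of 16 members end at or before the stem-loop, and those of 22 pass it by 1 to 99 bases. Members with a signal had a median of 1.13 FPKM (counts scaled to gene length and library total, computed from the deposited counts) in the mean of the input libraries, and the 50 members without one had 0.157. At least 10 counts in every input library were found for 9 of the 17 members with a signal and for 8 of the 50 without. Near-identical copies lower the number of uniquely mapped reads. Among members for which at least 50% of the 100-base windows occurred once in the genome, the medians were 1.23 FPKM with a signal (15 members) and 0.227 FPKM without (28 members). Of the 10 members with the highest input level, 6 had a signal. The classes overlapped widely, since members with a signal ranged from 0 to 108.6 FPKM and those without from 0 to 17.2 FPKM. Members are not replicates, and these values are given as a description without a test.

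**Figure D1:**
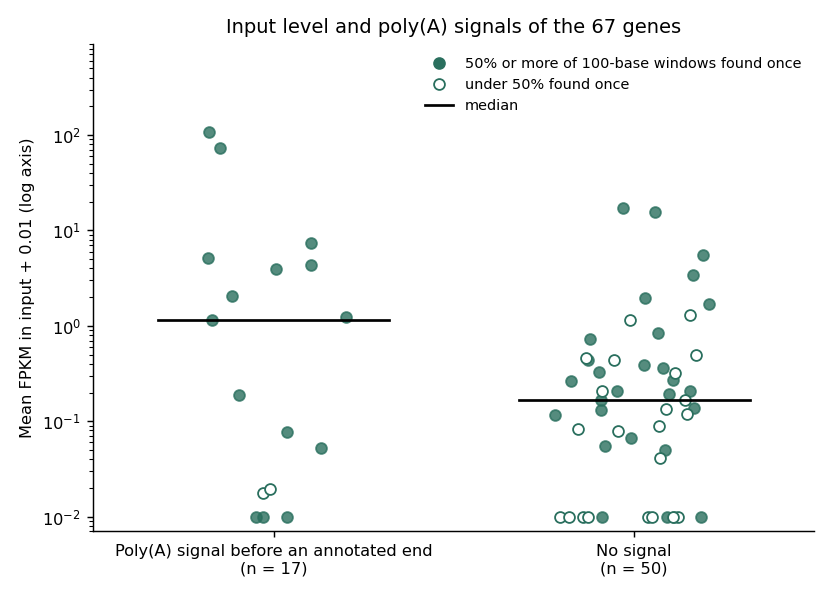
Mean FPKM in input plus 0.01 (log axis) of each of the 67 genes, split by whether a poly(A) signal lies before an annotated transcript end. Filled points have at least 50% of their 100-base windows found once in the genome, open points less, and lines are medians (1.13 FPKM with a signal and 0.157 without, before adding 0.01); the points of both classes overlap.

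The members together took a small part of each library. Their counts summed to 198.3 ± 18.2 CPM (counts scaled to the library total, SD, n = 3) in input, 171.6 ± 3.38 in IgG and 173.2 ± 2.78 in acRIP. Per length, their summed FPKM lay between 229.6 and 285.2 in input, between 218.3 and 219.5 in IgG and between 232.4 and 236.8 in acRIP. A list of 19 genes for polyadenylated histone variants, of which 4930558J22Rik is annotated as an antisense gene overlapping Hist1h4b and so is no variant, summed to between 4404 and 4485 FPKM in input. No count was found in any library for 8 members, and 37 had at most 10 counts in every library. A count in every input library was found for 33 members, and at least 100 for 7 of them, namely Hist1h2bp, Hist1h4a, Hist1h2bc, Hist3h2a, Hist2h2be, Hist1h3a and Hist1h1c. A few genes thus carried the total, and 4 of them (Hist1h2bp, Hist1h4a, Hist1h2bc and Hist3h2a) held 75.89% of the member counts in input, 74.52% in IgG and 74.4% in acRIP. Hist1h2al, which the annotation calls a processed pseudogene and which is therefore no member, held 2380, 1277 and 1098 counts in the input libraries, fewer than Hist1h2bp in each.

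**Figure D2:**
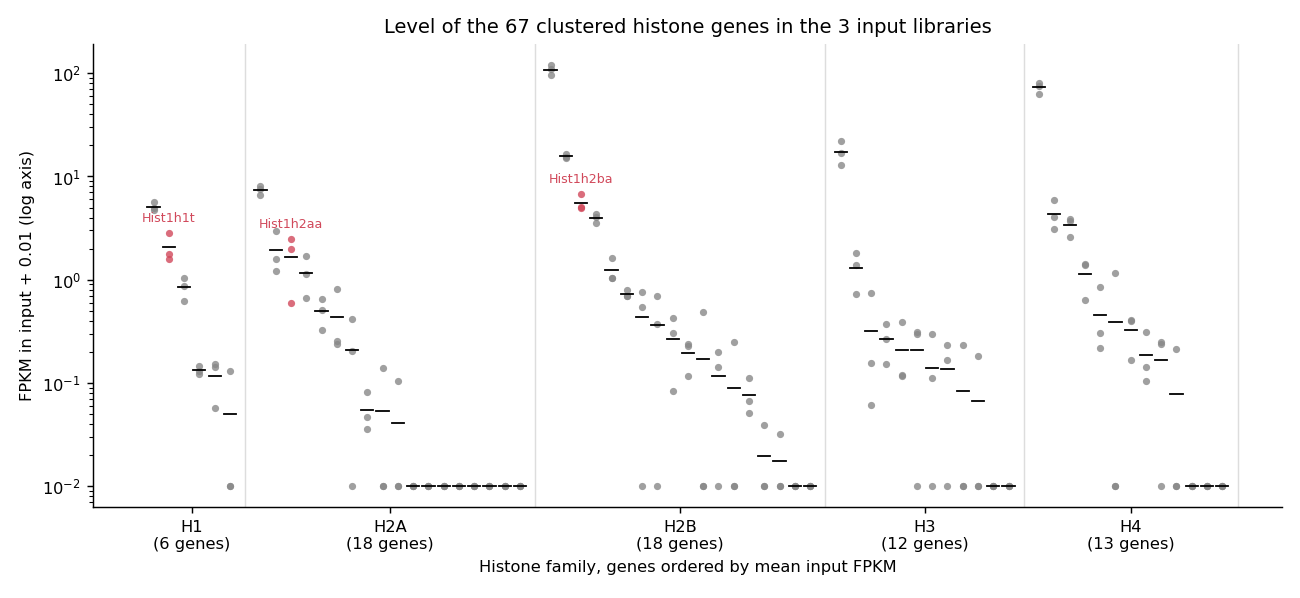
FPKM plus 0.01 (log axis) of each of the 67 genes in the 3 input libraries, ordered within each family by mean level. Points are libraries, short lines are means and the testis variants are in red; the testis variants are among the highest genes of their families, and H2A holds the most genes at 0.

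Total counts on genes ranged from 14647542 to 31340090 per library, with input the deepest group. Of the member counts between 1 and 20, 80.2% of 197 values were even, which would follow from counting each mate of a pair, so the counts probably overstate the number of independent fragments. All tests were run over 22510 genes, those left by edgeR's low-count filter, with the quasi-likelihood test and Benjamini-Hochberg adjustment. A gene was called when its adjusted p was under 0.05 and its fold change over 2. Of the 67 members, 23 passed the filter, comprising 4 of H1, 3 of H2A, 7 of H2B, 2 of H3 and 7 of H4. The other 44 had at most 18 counts in any library. Spermatid markers were abundant in every group, with a summed level of Prm1, Prm2, Tnp1, Tnp2, Acrv1 and Catsper3 between 26084 and 33536 FPKM, and none of these 6 genes was called against both groups by edgeR or DESeq2 (at an unadjusted p under 0.05 and with no limit on the fold, 3 were higher than both and 1 lower).

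Against IgG, 5 tested members were called higher in acRIP and 6 lower. Over all tested genes, 11.5% were called higher and 20.9% lower. Against input, 4 members were called higher and 7 lower, beside 17.7% and 22.9% of all tested genes. Higher than both groups were 4 members (Hist2h4, Hist2h3c2, Hist1h2bb and Hist1h4d), beside 7.88% of all genes. Lower than both groups were 6 members (Hist1h1t, Hist1h2aa, Hist1h1d, Hist1h2be, Hist4h4 and Hist3h2ba), beside 17% of all genes. The median log2 fold change over the 23 members was -0.12 against IgG and -0.49 against input, beside -0.09 and -0.10 over all tested genes. Setting genes at 0 to their bounds left each on the same side of the median, so it could not move the members' medians. The filter asks for enough reads in 3 libraries. Hist2h4, Hist1h2bb and Hist1h4d passed it only with the acRIP libraries, Hist1h2be and Hist4h4 only with IgG, Hist1h1d, Hist3h2ba and Hist2h2ac only with input, and Hist1h2aa only with input and IgG together. A gene that enters through the group where it is high is chosen for differing, so the adjusted p-values of these genes are too small and their calls are a description, and the counts support nothing about the members as a class. Of the members called against both groups, only Hist2h3c2 had enough reads in each of the groups. Hist1h1t had enough in input and in IgG but not in acRIP. It thus also entered only through the groups where it was high, and its adjusted p-values carry the same limit. Of the members called against both groups, a poly(A) signal was found in 1 of the 4 higher and in 4 of the 6 lower, beside 12 of all 23 tested members. Both comparisons share the acRIP libraries.

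**Figure D3:**
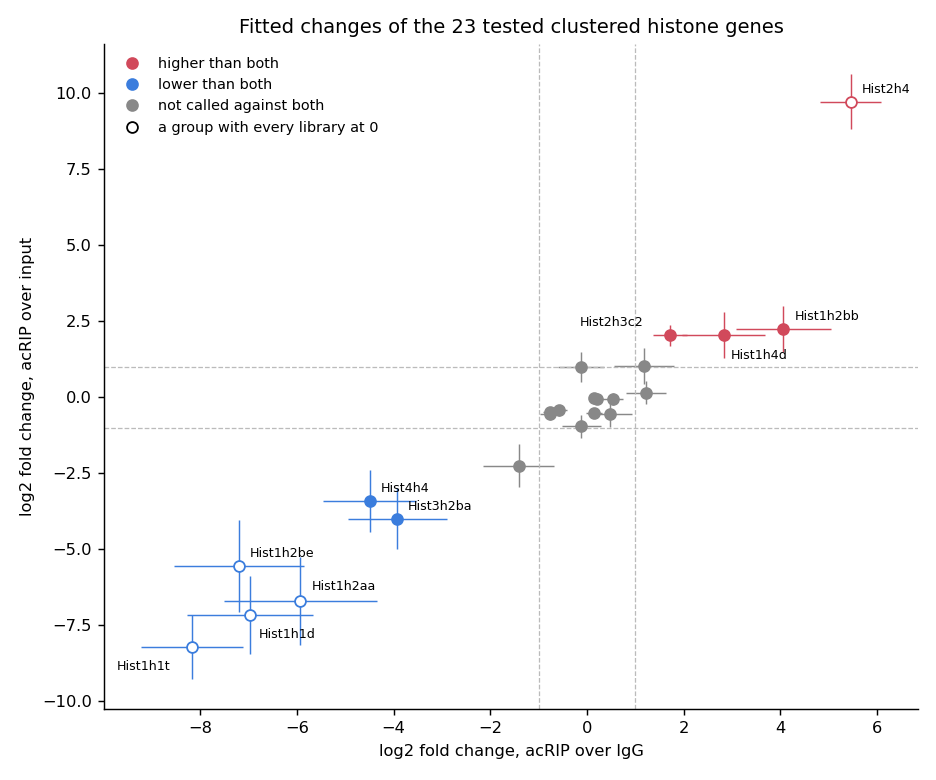
Fitted log2 fold change of acRIP over IgG (x axis) and over input (y axis) for the 23 tested genes, with bars for the standard error and dashed lines at 2-fold. Open points have a group in which every library was at 0, so their position depends on the fit's prior count and is no measured size. Called against both groups were 4 genes at upper right and 6 at lower left. Hist1h1a and Hist2h2ac also lie beyond both dashed lines but were not called against both. Both axes share the acRIP libraries.

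The testis variants are described first. Hist1h1t (chr13:23695814-23696725), the linker histone of spermatocytes and early spermatids, had 81, 32 and 36 counts in the input libraries, 16, 46 and 34 in IgG and 0 in each acRIP library. Its level was 2.07 ± 0.67 FPKM (SD, n = 3) in input and 1.96 ± 0.74 in IgG. No acRIP library held a read, and input and IgG overlapped. With a floor of 3 counts per library, its acRIP level was at least 10.2-fold lower than that in IgG and at least 10.7-fold lower than that in input, or 5.09-fold and 5.37-fold with a floor of 3 read pairs. edgeR's adjusted p was 1.11e-07 against IgG and 3.98e-08 against input. All of its 100-base windows occurred once in the genome.

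Hist1h2aa (chr13:23934462-23934851), which encodes TH2A, had 30, 5 and 17 counts in input, 10, 5 and 4 in IgG and 0 in each acRIP library. It was also without a read in acRIP, but from a lower level. Its acRIP level was at least 2.21-fold lower than that in IgG (adjusted p = 0.0018, edgeR) and at least 3.7-fold lower than that in input (adjusted p = 0.000162, edgeR). With a floor of 3 read pairs no bound could be given, since single libraries of both other groups held no more than 6 counts.

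Hist1h2ba (chr13:23933773-23934156), which encodes TH2B, the H2B that replaces much of the somatic form in meiotic cells, lies 305 bases from Hist1h2aa and is read in the opposite direction. It had 81, 43 and 42 counts in input, 10, 11 and 33 in IgG and 14, 34 and 24 in acRIP. Unlike Hist1h1t and Hist1h2aa, it was present in every acRIP library, and the acRIP and IgG libraries overlapped. Its log2 fold change in acRIP was 0.48 (SE 0.46, adjusted p = 0.369 by edgeR) against IgG and -0.56 (SE 0.42, adjusted p = 0.242 by edgeR) against input. Without IgG replicate 3, which held most of the IgG counts, the change against IgG became 1.18 with an adjusted p of 0.0492 (edgeR). IgG was lower than input by a log2 fold change of -1.04 (SE 0.44, adjusted p = 0.0473 by edgeR), a call that was lost when any input library or IgG replicate 1 or 2 was left out (adjusted p between 0.0628 and 0.196, edgeR). Whether Hist1h2ba and Hist1h2aa differed in their change was not tested.

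**Figure D4:**
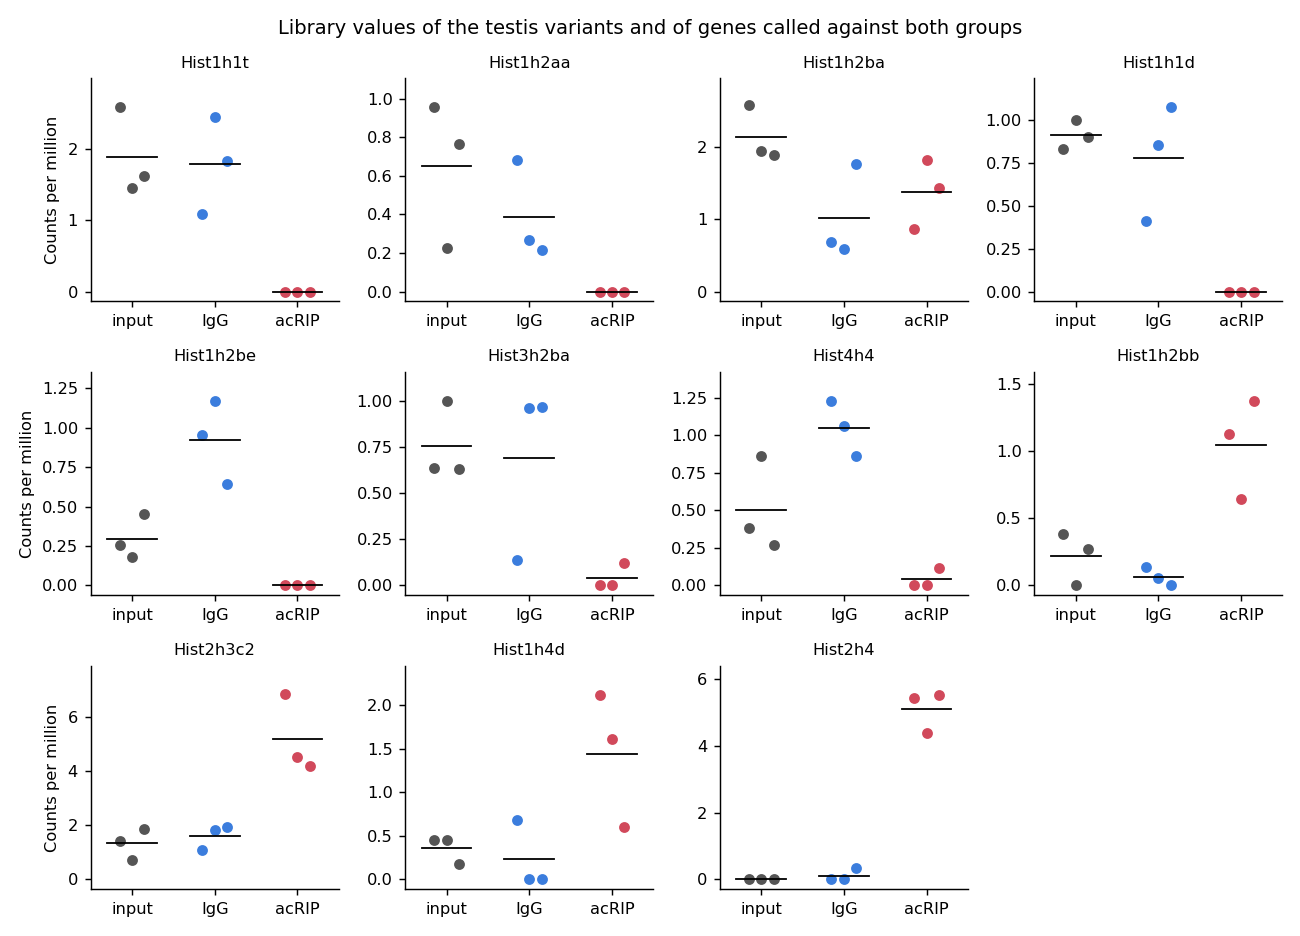
CPM in each library (points) and group mean (lines) for the testis variants Hist1h1t, Hist1h2aa and Hist1h2ba and for the other genes called against both groups; each panel has its own axis from 0. In Hist1h1t, Hist1h2aa, Hist1h1d and Hist1h2be all 3 acRIP points are at 0, and in Hist2h4 all 3 input points are.

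Among the other linker histones, Hist1h1c, the most abundant H1 member, had 240, 162 and 196 counts in input, 122, 178 and 174 in IgG and 64, 122 and 80 in acRIP. Its log2 fold change was -0.77 (SE 0.20, adjusted p = 0.00116 by edgeR) against IgG and -0.55 (SE 0.20, adjusted p = 0.0133 by edgeR) against input, below the 2-fold limit of a call. Hist1h1d had 26, 22 and 20 counts in input, 6, 16 and 20 in IgG and 0 in each acRIP library. Against IgG it was at least 4.43-fold lower in acRIP (adjusted p = 3.3e-05, edgeR) and against input at least 5.18-fold lower (adjusted p = 1.2e-05, edgeR), or at least 2.59-fold against input with a floor of 3 read pairs. Its annotated exons sum to 7425 bases, far beyond its coding sequence, and the counts do not show where on them the reads lay. Hist1h1a moved the other way, with 20, 10 and 17 counts in input, 12, 14 and 2 in IgG and 18, 22 and 22 in acRIP, and was not called (adjusted p = 0.0962 against IgG and 0.117 against input, edgeR). The summed level of the 6 H1 members was 11.6 ± 0.94 CPM (SD, n = 3) in input, 12.3 ± 1.56 in IgG and 6.55 ± 1.23 in acRIP. The acRIP libraries lay below all others. Most of this sum was Hist1h1c, with means of 7.95 CPM in input, 9.05 in IgG and 5.1 in acRIP. Hist1h1t went from 1.89 CPM in input and 1.79 in IgG to 0 in acRIP, and Hist1h1d from 0.91 and 0.78 to 0. The fall of the sum therefore comes from Hist1h1c, which was not called, together with these called members. Hist1h1a was higher in acRIP, so the sum does not show a loss across the family. In no other family did the summed acRIP libraries lie below all others. The mean sums of H2A and H2B were lowest in acRIP, and those of H3 and H4 were highest there.

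Hist3h2a (chr11:58954685-58956830) was the most abundant member of the H2A family, with 549, 360 and 314 counts in input, 175, 180 and 164 in IgG and 196, 203 and 151 in acRIP. Its log2 fold change in acRIP was 0.14 (SE 0.16, adjusted p = 0.469 by edgeR) against IgG and -0.50 (SE 0.15, adjusted p = 0.00434 by edgeR) against input, and neither was a call. It shares up to 708 bases with Trim17, so reads in that stretch may belong to either gene. Hist2h2ac had 26, 34 and 14 counts in input, 4, 12 and 13 in IgG and 3, 5 and 2 in acRIP. It was lower in acRIP than in input (log2 fold change -2.25, SE 0.70, adjusted p = 0.00493 by edgeR) but was not called against IgG (-1.42, SE 0.74, adjusted p = 0.0936). An annotated miRNA gene overlaps 17 of the 18 H2A members, by 129 to 144 bases where it is the sole overlapping gene, and no member of another family. How reads in overlaps were assigned is not stated, so H2A counts are uncertain.

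In the H2B family, Hist1h2bp (chr13:21787461-21789213) was the most abundant member of all 67. Its input level was 108.6 ± 12.5 FPKM (SD, n = 3), beside 88.5 ± 3.58 in IgG and 98.3 ± 1.35 in acRIP, from 2656, 1720 and 1493 counts in input, 952, 1126 and 1161 in IgG and 1123, 1302 and 1146 in acRIP. The log2 fold change was 0.20 (SE 0.07, adjusted p = 0.0166 by edgeR) against IgG and -0.07 (SE 0.07, adjusted p = 0.407 by edgeR) against input. Hist1h2bc had 560, 417 and 385 counts in input, 249, 399 and 482 in IgG and 189, 180 and 255 in acRIP. It was lower in acRIP by a log2 fold change of -0.77 (SE 0.15, adjusted p = 5.11e-05 by edgeR) against IgG and -0.49 (SE 0.15, adjusted p = 0.00436 by edgeR) against input, both under 2-fold.

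Hist1h2bb, which entered the test through acRIP alone, had higher counts there than in both other groups. It had 12, 0 and 6 counts in input, 2, 1 and 0 in IgG and 18, 12 and 23 in acRIP, and the acRIP libraries did not overlap the others once scaled to depth. The ratio of acRIP to IgG over the summed counts was 17.9, with an exact 95% interval of 5.79 to 89.4 that covers counting error only (adjusted p = 0.000595, edgeR). That interval takes each count as independent and is too narrow if both mates of a pair were counted. Against input the log2 fold change was 2.24 (SE 0.76, adjusted p = 0.00953 by edgeR), and the call was lost without input replicate 2 (adjusted p = 0.0655) or without acRIP replicate 3 (adjusted p = 0.058). It was also lost in edgeR's test against a 2-fold change (adjusted p = 0.0602), and with halved counts no call was left against either group.

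Among the H2B members called lower, Hist1h2be had 8, 4 and 10 counts in input, 14, 22 and 12 in IgG and 0 in each acRIP library. Against IgG it was at least 5.26-fold lower in acRIP (adjusted p = 3.2e-05, edgeR), or 2.63-fold with a floor of 3 read pairs, and against input at least 1.68-fold lower (adjusted p = 0.00185, edgeR). It shares up to 496 bases with other annotated genes on its strand, Hist1h1e among them. Hist3h2ba had 20, 22 and 14 counts in input, 2, 18 and 18 in IgG and 0, 0 and 2 in acRIP. Over the summed counts it was 18.8-fold lower in acRIP than in IgG (95% interval 4.85 to 161, counting error only, adjusted p = 0.00136 by edgeR) and 19.1-fold lower than in input (5.04 to 161, adjusted p = 0.000779 by edgeR). Both intervals take each count as independent and are too narrow if both mates of a pair were counted.

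Only 2 H3 members were tested. Hist1h3a had 280, 258 and 152 counts in input, 110, 108 and 87 in IgG and 106, 162 and 160 in acRIP, or 17.2 ± 4.57 FPKM (SD, n = 3), 11.2 ± 2.68 and 15.5 ± 2.82. It was not called in acRIP (log2 fold change 0.53, SE 0.21, adjusted p = 0.031 against IgG, and -0.06, SE 0.20, adjusted p = 0.79 against input, edgeR). Hist2h3c2 (chr3:96238108-96239127) had 44, 16 and 41 counts in input, 16, 34 and 36 in IgG and 110, 84 and 70 in acRIP. Every acRIP library lay above every other library. The log2 fold change was 1.71 (SE 0.35, adjusted p = 7.66e-05 by edgeR) against IgG and 2.04 (SE 0.34, adjusted p = 4.14e-06 by edgeR) against input. Of its 100-base windows, 38.44% occurred once in the genome, so part of the gene cannot be told apart from near-identical copies. Hist1h3b, the H3 member with the third highest input level, had 1, 10 and 2 counts in input and 0 in all other libraries and was not tested.

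Hist1h4a (chr13:23760692-23761230), the most abundant H4 member, had 1354, 901 and 761 counts in input, 496, 681 and 599 in IgG and 606, 698 and 575 in acRIP, or 73.2 ± 8.59 FPKM (SD, n = 3), 63.3 ± 3.77 and 67.7 ± 3.61. It was not called in acRIP, with log2 fold changes of 0.15 (SE 0.09, adjusted p = 0.17 by edgeR) against IgG and -0.04 (SE 0.09, adjusted p = 0.745 by edgeR) against input.

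Hist2h4 (chr3:96261682-96263311) had 0 counts in each input library, 0, 0 and 6 in IgG and 87, 82 and 93 in acRIP. The acRIP libraries were close to each other, at 3.14 ± 0.39 FPKM (SD, n = 3), and far above the rest. Against input the acRIP level was at least 41.9-fold higher with a floor of 3 counts per library and at least 20.9-fold higher with a floor of 3 read pairs (adjusted p = 8.36e-11, edgeR). Over the summed counts it was 44.2-fold higher than in IgG, with an exact 95% interval of 20 to 121 that covers counting error only (adjusted p = 1.72e-08, edgeR). That interval takes each count as independent and is too narrow if both mates of a pair were counted. The 6 IgG counts in 1 library also passed as a call of IgG over input, which was lost without IgG replicate 3 or input replicate 1. All of its 100-base windows occurred once in the genome, and a poly(A) signal lies before its annotated end, 1257 bases past the stem-loop.

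Hist1h4d, named after its values were seen, had 14, 10 and 4 counts in input, 10, 0 and 0 in IgG and 34, 30 and 10 in acRIP. It also entered the test only with the acRIP libraries and was called higher than both groups, with a log2 fold change of 2.83 (SE 0.86, adjusted p = 0.00478 by edgeR) against IgG and 2.05 (SE 0.76, adjusted p = 0.0167 by edgeR) against input, but the lowest acRIP library overlapped IgG. The call against input was lost when input replicate 3, acRIP replicate 1 or acRIP replicate 2 was left out. It was also lost in edgeR's test against a 2-fold change (adjusted p = 0.0966), and with halved counts no call was left against either group. Hist1h4h had 88, 42 and 32 counts in input, 14, 16 and 20 in IgG and 30, 28 and 53 in acRIP. It was called higher than IgG (log2 fold change 1.22, SE 0.41, adjusted p = 0.0114 by edgeR) and not input (0.15, SE 0.38, adjusted p = 0.743), and without acRIP replicate 3 the first call was lost (0.86, adjusted p = 0.103). Hist1h4c had 67, 70 and 68 counts in input, 22, 38 and 19 in IgG and 22, 16 and 31 in acRIP. It fell short of a call against input (log2 fold change -0.96, SE 0.38, adjusted p = 0.0241 by edgeR) and became one without input replicate 1, without acRIP replicate 3 or with upper quartile scaling (-1.01).

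Hist4h4, the sole member on chromosome 6, had 12, 19 and 6 counts in input, 18, 20 and 16 in IgG and 0, 0 and 2 in acRIP. Over the summed counts it was 26.7-fold lower in acRIP than in IgG (95% interval 7.04 to 226, counting error only, adjusted p = 0.000157 by edgeR) and 12.6-fold lower than in input (3.25 to 108, adjusted p = 0.00325 by edgeR). Both intervals take each count as independent and are too narrow if both mates of a pair were counted.

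Many members were at 0 throughout a group. Of all 67 members, 32 had no count in any acRIP library, 20 had none in any IgG library and 15 had none in any input library. Of the 32, 20 had a count in some input library and 11 in every one. The shares of all genes for these counts were not computed. With a count in every input and every IgG library and none in acRIP, there were 4 members (Hist1h1t, Hist1h2aa, Hist1h1d and Hist1h2be), all of them tested, which is 4 of the 23 tested members (17.4%) and 4 of all 67 (5.97%). Of the 22510 tested genes there were 1551 (6.89%). The tested members are few and not independent of this pattern through the filter, so the shares are a description. The reverse, no count in IgG and one in every other library, was found in 0 members and in 99 tested genes (0.44%). For a single member a count of 0 allows up to 3 counts in that library.

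Members were also compared between the control groups. IgG was called higher than input for Hist1h2be and Hist2h4, and lower for Hist1h2ba and Hist1h4h, which is 2 in each direction, beside 13.5% and 7.22% of all tested genes. Hist1h2be was no longer called higher when any 1 of the 9 libraries was left out, and Hist1h4h no longer lower without input replicate 1 or IgG replicate 1 or 2.

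Most tested genes were not called against both groups (7.88% were higher and 17% lower), and this also held for genes that process histone mRNA or carry histones. In a list of 30 genes of histone mRNA processing, 1 was called higher in acRIP than both groups and 2 lower. Slbp, which encodes the stem-loop binding protein, had 3852, 2804 and 2655 counts in input, 1062, 1450 and 1518 in IgG and 1119, 1157 and 1267 in acRIP, and its log2 fold change was -0.11 (SE 0.07, adjusted p = 0.142 by edgeR) against IgG. Upf1, a helicase needed for the decay of histone mRNA, was the one that rose, by log2 fold changes of 1.05 (SE 0.16, adjusted p = 8.77e-07 by edgeR) against IgG and 2.29 (SE 0.16) against input. IgG was also called higher than input for Upf1 (log2 fold change 1.24, SE 0.17, adjusted p = 1.76e-07 by edgeR). Cpsf3, the endonuclease that cuts both histone and polyadenylated pre-mRNAs, and Ctif, a factor in the translation of capped mRNAs, were lower than both groups. Cpsf3 had log2 fold changes of -1.27 (SE 0.09, adjusted p = 1.12e-12 by edgeR) and -1.52 (SE 0.09). Ctif rested on few reads, with 0, 0 and 2 counts in acRIP, 9, 15 and 16 in IgG and 19, 16 and 6 in input. The list's median log2 fold change was 0.02 against IgG and 0.06 against input.

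Of 16 histone chaperones, none was called higher than both groups by edgeR or DESeq2, beside 7.88% of all tested genes. At an unadjusted p under 0.05 with no limit on the fold, 4 were higher and 5 lower. Beside 17% of all tested genes, 1 chaperone was called lower. That was Supt16, a subunit of the FACT complex, with log2 fold changes of -1.07 (SE 0.12, adjusted p = 2.63e-09 by edgeR) against IgG and -1.85 (SE 0.11) against input. Nasp, a chaperone of H1 and of H3 and H4, had a log2 fold change of -0.04 (SE 0.04, adjusted p = 0.396 by edgeR) against IgG. The list's median was -0.11 against IgG and 0.06 against input.

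Of the list of polyadenylated histone variants, 18 of 19 genes were tested. None was called higher than both groups by edgeR or DESeq2 and 1, H2afy2, was lower, beside 7.88% and 17% of all tested genes. At an unadjusted p under 0.05 with no limit on the fold, 5 were lower and 2 higher, H2al2a and the antisense gene 4930558J22Rik. H2afy2, which encodes a macroH2A, had 89, 40 and 84 counts in input, 40, 33 and 47 in IgG and 0, 2 and 0 in acRIP. The germ cell linker histones were far more abundant than Hist1h1t, with Hils1 at a mean of 1485 FPKM in input and H1fnt at 449.4, and neither was called in acRIP against IgG or input. H1fx was 3.34 higher in acRIP than in input on the log2 scale (SE 0.21, adjusted p = 2.83e-15 by edgeR) but not than in IgG (-0.06, SE 0.17, adjusted p = 0.766 by edgeR).

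The summed level of markers of dividing cells was lowest in acRIP and that of blood markers highest there. Their part in the members' changes was not tested. Of 10 S phase genes, none was called higher than both groups by edgeR or DESeq2 and 2, Mcm3 and Mcm4, were lower. Over all tested genes, 7.88% were higher and 17% lower. With an unadjusted p under 0.05 and no limit on the fold, 0 S phase genes were higher and 4 lower. The list's summed level was between 73.1 and 77.2 FPKM in input, between 62.8 and 71.8 in IgG and between 49 and 53.7 in acRIP. Of 4 blood genes, Hbb-bs and Ptprc were higher than both groups and Alas2 was lower, and their summed level was between 177.9 and 182.7 FPKM in input, between 236.4 and 254.6 in IgG and between 878.3 and 1150 in acRIP, nearly all of it Hbb-bs, while a β-globin probe had been added to the RNA. Of 5 spermatogonial genes, 1 was higher and 1 lower than both groups. None of the 5 spermatocyte, 6 Sertoli cell, 5 Leydig cell or 2 peritubular cell markers was called against both groups by edgeR or DESeq2. At an unadjusted p under 0.05 with no limit on the fold, 4 spermatocyte genes were lower than both groups, 1 Sertoli cell and 1 Leydig cell gene were higher, and as many of each lower. Of the Sertoli cell markers Rhox5 was at 0 in every library and Amh was too low to be tested.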

How the data were processed

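The authors trimmed reads with Trim Galore 0.6.7, mapped them to mm10 with STAR 2.7.10a, and deposited raw counts of uniquely mapped reads per gene from featureCounts 2.0.2. Annotation release, strandedness and the counting of single reads or pairs are not given in the sources used here. Identifiers were matched without their version to GENCODE vM21 on the same build (55141 of 55401), and all 67 members had the same coordinates there. The deposited gene length and the library totals gave FPKM. Columns of per-sample values not used numbered 0.

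The main test was edgeR 4.0.16's quasi-likelihood test (R 4.3.3) after filterByExpr and TMM scaling, fitted over 9 libraries with a mean for each group. Alternatives were DESeq2 1.42.0, other scalings and filters, halved counts, fits of 6 libraries, a block for the replicate number and leaving out single libraries. The scripts were tested on simulated data. SE is the log2 fold change divided by the square root of F. Intervals are exact (95%) and take each count as independent, so they are too narrow if both mates of a pair were counted. They and the floors cover counting error only. Histone stem-loops were searched on the gene's strand with a pattern of 16 bases. Python 3.11.15 was used for sequences and figures.

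Members, lists and the rule for named genes were chosen with earlier results of these data known. Values are given for the testis variants, the 3 members of each family with the highest input FPKM, and up to 5 others with the largest and 5 with the lowest change against IgG among those called against both groups with no overlap of libraries. Peaks and cell line libraries were not analysed here.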

Additional observations from a re-analysis of the deposited data

How the results depend on the processing

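Of 1208 recomputed fold changes of the 23 tested members, 1155 kept their side of the call, 40 lost a call and 13 gained one. The sign changed in 19 of the 1155, none of them called in either fit, with sizes of up to 0.40 on the log2 scale (Hist3h2ba, IgG over input), and in 0 of the others. Members that left the test under a setting gave no fold change there, so their lost calls are not among the 40. This applies to the halved counts and to the fits of 6 libraries. With counts halved, 15 members were tested, and acRIP over IgG gave 3 higher and 1 lower, acRIP over input 2 and 1, IgG over input 1 and 1, and both groups together 2 and 1. Of the members called against both groups, only Hist2h4 and Hist2h3c2 (higher) and Hist1h1t (lower) kept that call with halved counts. With only the 6 libraries compared, acRIP over IgG gave 3 lower (19 tested), acRIP over input 4 lower (20 tested), IgG over input 1 higher, and both groups together 1 lower, Hist1h1t (17 tested). With no filter on low counts, 59 members were tested, and acRIP over input gave 11 lower and IgG over input 4 lower. A test against a 2-fold change left 2 members higher in acRIP than in input, 2 higher than both groups, and 0 in either direction for IgG over input, where edgeR's own test gave 2 each way. IgG over input gave 1 higher with upper quartile scaling and 1 with DESeq2. Leaving out 1 library at a time gave 4 to 6 higher and 6 to 7 lower for acRIP over IgG, 3 to 5 and 7 to 8 for acRIP over input, 0 to 3 and 0 to 2 for IgG over input, and 3 to 4 and 6 to 6 for both groups together. Deviations of libraries with the same replicate number correlated between -0.007 and 0.035, and those with other numbers between -0.03 and 0.027. Matched libraries could give values this low where technical noise dominates, so they do not tell whether the numbers pair the libraries. With a replicate block, IgG over input gave 1 higher, and the other counts were 5, 4 and 4 higher and 6, 7, 2 and 6 lower, as without the block. The summed input level of 198.3 CPM was 29.9 over the 9 members with every window found once, and 190.9 to 208.4 without 1 input library. Members with few counts are limited by depth, and the cause of the other changes was not tested.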
